A study of Mus musculus with 32 samples.

Results

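Pmel T cells are CD8+ T cells with a transgenic receptor for gp100, a protein that pigment cells and melanoma share. The data described here compare Pmel cells taken from tumors with naive Pmel cells, by bulk RNA sequencing of 4 libraries each, so 8 of the 32 libraries of the series were chosen by their labels. The series holds 8 groups of 4 libraries, from spleen, lymph node, skin, lung, liver and tumor. Naive cells were labelled as spleen, and lymph node cells of day 12 (labelled TDLN), also 4 libraries, served as a further comparison. All these groups are labelled as CD8+ Thy1.1+ Pmel T cells of C57BL/6 mice aged 16 weeks. Melanoma-associated vitiligo is given as the disease state of every group, naive cells included. The day of collection of the naive and tumor cells, the tumor line, the pooling of animals and the dissociation of spleen and tumor are not stated in the sources used here. Nothing in the labels ties the libraries to separate animals. The p-values therefore measure only the spread between libraries, pooled over all 8 groups of the series, and this spread may be technical. Because every cell carries the same receptor, the comparison describes a single specificity and not a natural repertoire.

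A naive CD8+ T cell recirculates between blood and lymph nodes. It enters nodes with the help of CCR7, leaves them along sphingosine-1-phosphate, and holds this programme with transcription factors such as TCF-1, LEF-1 and KLF2. Contact with antigen drives division, cytotoxic granules and effector cytokines, and repeated contact in a tumor is known to bring a set of inhibitory receptors that includes PD-1, TIM-3 and LAG-3.

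Values are TPM, the share of a library's transcripts per gene scaled to a fixed sum and corrected for gene length, so that levels can be compared between genes. Values are listed in the order of replicates 1 to 4. Changes are tumor minus naive on the log2(TPM + 1) scale with the standard error (SE) of the fit, n = 4 libraries per group. The added 1 TPM understates the change of genes near 0. A gene is said to rise or fall where its Benjamini-Hochberg adjusted p over 19738 tested genes lay under 0.05 in limma. Read counts were not used here, so the depth is unknown and the number of libraries limits the precision.

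Both groups were T cell libraries of the Pmel receptor. Trbv14, the variable segment of its beta chain, made up 99.30% to 99.43% of all beta chain segment TPM in naive libraries and 98.91% to 99.19% in tumor libraries. All 16 T cell identity genes lay above 1 TPM in every library of both groups. Their summed TPM was lower in tumor, at 35544, 29855, 26091 and 14115 against 38204 to 44222 in naive, lowest in tumor replicate 4. Trbc2, the receptor beta chain constant gene, made up most of this sum, with 8946 of 14115 TPM in that library. Tumor replicate 4 also correlated least with the other tumor libraries, at 0.914 to 0.949 on the log2 scale over genes against 0.973 to 0.976 for the other pairs of tumor libraries. Marker sums of most other cell types were higher in tumor libraries. Melanocyte and melanoma genes summed to 434 to 1012 TPM against 16.7 to 22.4 in naive, with 10 of 12 above 1 TPM in every tumor library. Myeloid genes summed to 419 to 730 TPM against 8.73 to 13.8, with 15 of 19 above 1 TPM in every tumor library, and keratinocyte genes to 84.8 to 617 against 5.83 to 10, with 7 of 12. Haemoglobin and other erythroid genes summed to 3609 to 12468 TPM against 343 to 948, with 5 of 7 above 1 TPM in every tumor library. Dendritic genes summed to 224 to 423 TPM against 31.4 to 85, and stromal and endothelial genes to 105 to 507 against 59.8 to 86.3. Cd74 (102 to 191 TPM) and H2-Ab1 (54.2 to 111 TPM) made up most of the dendritic sum in tumor. In both groups, 6 of 11 dendritic genes lay above 1 TPM in every library. Natural killer genes summed to 61.6 to 86.8 against 2.51 to 8.07, and CD4 and regulatory T cell genes to 28.7 to 32.9 against 4.32 to 11.1. In tumor, Pecam1 (86.6 to 466 TPM) made up most of the stromal and endothelial sum. Klre1 (48.2 to 73.6 TPM) likewise made up most of the natural killer sum and Il2ra (21.2 to 28.2 TPM) most of the CD4 sum. Their other members were mixed, and Foxp3 was lower in tumor, at 0.06 to 0.22 TPM against 0.26 to 0.46. The B cell sum was lower in tumor, at 149 to 287 TPM against 862 to 1017, and the gamma delta T cell sums overlapped between the groups. Ighm made up most of the naive B cell sum, at 802 to 933 TPM, and was at 52.2 to 137 TPM in tumor. Ebf1 of the same list went the other way, at 6.56 to 8.8 TPM in naive and 29.6 to 215 TPM in tumor. At the same time mitochondrial transcripts took 5.43% to 14.8% of TPM against 2.18% to 2.66%. Between 28321 and 33644 genes lay above 0. In bulk samples, fewer cells of a type and less RNA per cell cannot be told apart.

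**Figure D1:**
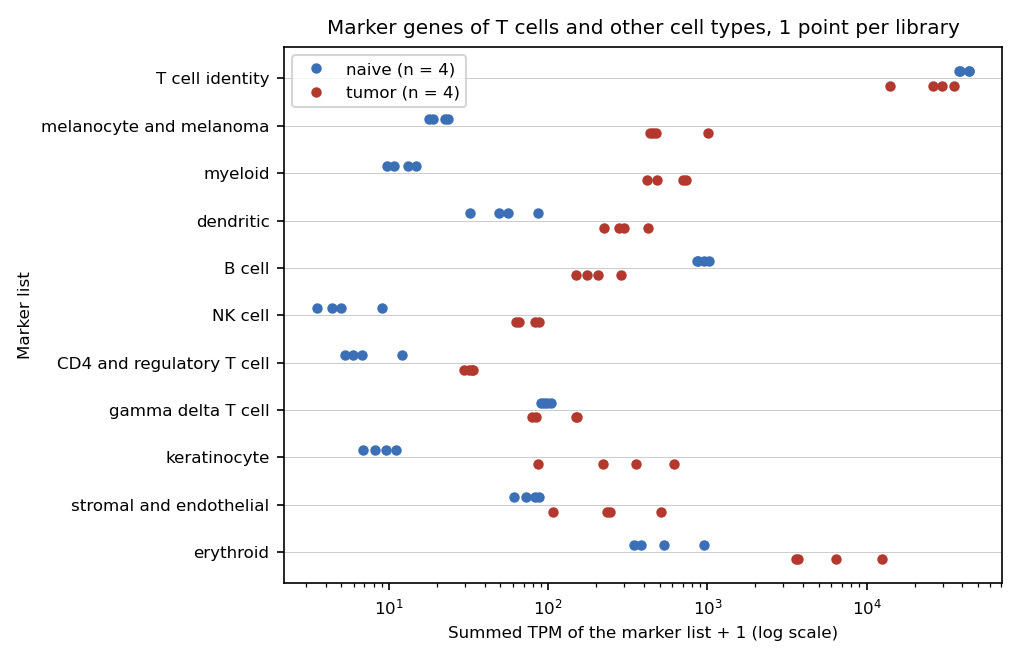
Summed TPM of the marker lists of T cells and of 10 other cell types in each naive (blue) and tumor (red) library, on a log axis with 1 TPM added. T cell genes stood at 14115 TPM or more in every library, and the sums of 8 other cell types lay higher in all 4 tumor libraries than in all 4 naive libraries. B cell sums lay lower in tumor, and gamma delta T cell sums overlapped. Klre1, Il2ra and Pecam1 made up most of the natural killer, CD4 and stromal sums in tumor, and Cd74 with H2-Ab1 most of the dendritic sum.

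The tumor state differed from the naive state across much of the transcriptome. Of 19738 tested genes, 1444 rose (7.32%) and 1583 fell (8.02%), and the median change over all tested genes was -0.06. Of those that rose, 190 changed by more than 4 on the log2 scale, against 42 of those that fell. The list counts below are to be read beside the shares of 7.32% and 8.02%. Every tumor library lay above every naive library for 3526 genes (17.9%) and below for 5639 genes (28.6%). The spread was pooled over all 8 groups, and liver, with a residual SD of 1.33, varied more than naive (0.387) and tumor (0.512). A fit of the compared groups alone called 3745 higher and 5574 lower. Without tumor replicate 4, 1203 rose and 1020 fell, and without naive replicate 1, 1138 rose and 1020 fell.

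**Figure D2:**
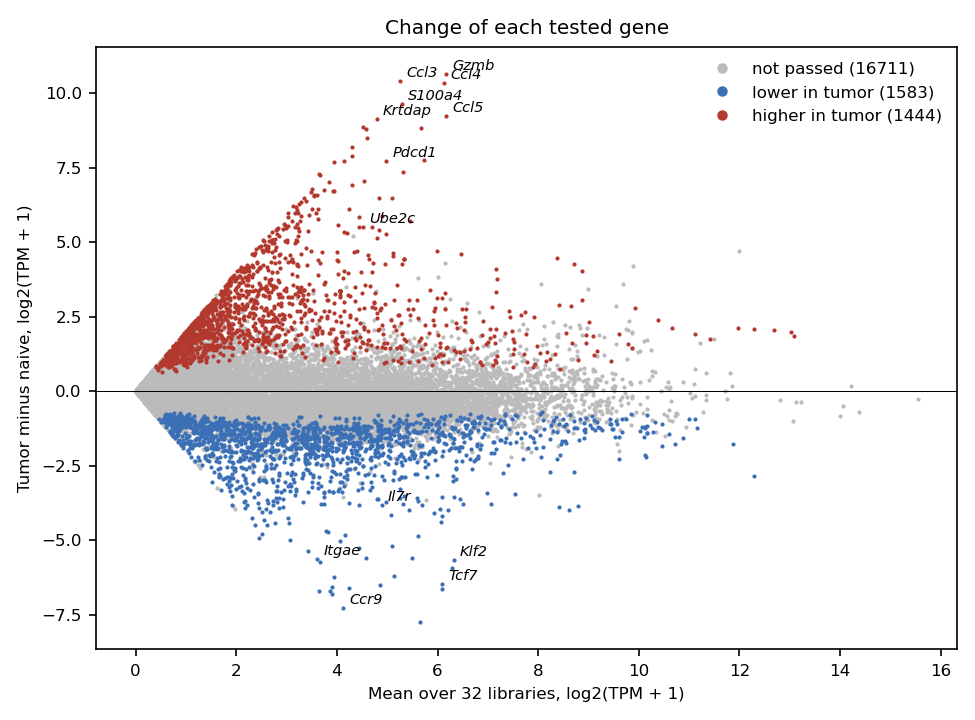
Change of each of the 19738 tested genes between tumor and naive (vertical axis, log2) against its mean (horizontal axis, log2(TPM + 1)). The mean is over the 8 naive and tumor libraries, although the axis title names 32. Red points are the 1444 genes that rose and blue points the 1583 that fell. Granzyme B and the chemokines Ccl3 and Ccl4 lie at the top, and Ccr9 and Tcf7 near the bottom.

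The largest increase was that of Gzmb, granzyme B, the serine protease with which cytotoxic T cells kill their targets (chr14:56258838-56262260, minus strand, GRCm38). Gzmb was at 0.93, 0.6, 0.63 and 1.17 TPM in the naive libraries and at 3278, 3276, 2626 and 2441 TPM in the tumor libraries, a change of 10.63 ± 0.55 (adjusted p = 3.65e-14). The tumor libraries stood close together, and all were far above the naive ones. Ccl3 and Ccl4, neighbouring genes on chromosome 11 for inflammatory chemokines, followed. Ccl3 was at 0, 0, 0.09 and 0.09 TPM in naive and 1758, 2046, 1547 and 692 TPM in tumor (change 10.39 ± 0.82, adjusted p = 1.62e-10). Ccl4 was at 0.75, 0.98, 1.34 and 0.75 TPM in naive and 3146, 3589, 2901 and 1189 TPM in tumor (change 10.33 ± 0.53, adjusted p = 3.65e-14). In both genes tumor replicate 4, the library with the lowest T cell identity sum, was the lowest of the tumor libraries and still far above every naive library. The other genes of the 10 largest increases were S100a4 (9.64), Ccl5 (9.24), Krtdap (9.14), Mt1 (8.86), S100a6 (8.82), Klrc1 (8.81) and Lgals3 (8.48). Krtdap, a gene of differentiating keratinocytes, was at 575, 1626, 919 and 218 TPM in tumor and at most 0.41 TPM in naive. It was highest in tumor replicate 2 and lowest in tumor replicate 4, the order of the keratinocyte sums of 617 and 84.8 TPM in those libraries, and the part of other cells in its change was not tested.

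Genes of the naive and recirculating state fell together. Of 44 listed members, 41 fell and none rose, against 8.02% of all genes falling, with a median change of -3.26 against -0.06 over all genes. The count was 38 without tumor replicate 4 and 41 after rescaling without marker, receptor segment and mitochondrial genes. The node-homing receptor Ccr7 was at 707, 662, 650.1 and 713 TPM in naive and 13.2, 1.94, 7.59 and 5.24 TPM in tumor (change -6.64 ± 1.24, adjusted p = 0.000276). The egress receptor S1pr1 was at 322, 289, 300.3 and 291 TPM in naive and 3.33, 3.73, 5.64 and 0.98 TPM in tumor (change -6.22 ± 0.88, adjusted p = 6.79e-06). Both genes were abundant in every naive library and far lower in every tumor library.

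The transcription factors of this state moved with the receptors. Tcf7, which encodes TCF-1, was at 628, 633, 665 and 628 TPM in naive and 3.84, 9.59, 11.1 and 3.28 TPM in tumor (change -6.48 ± 0.61, adjusted p = 6.16e-09). Its relative Lef1 was at 674, 588, 586 and 595 TPM in naive and 10.2, 8.97, 11.2 and 6.26 TPM in tumor (change -5.94 ± 0.93, adjusted p = 2.94e-05). Klf2, which drives transcription of S1pr1, was at 630.4, 504, 555 and 594 TPM in naive and 10.2, 8.65, 23.8 and 4.94 TPM in tumor (change -5.67 ± 0.46, adjusted p = 2.85e-10). Tumor replicate 3 was the highest tumor library for all 3 factors and also for S1pr1 and Klf3, and no tumor library overlapped with naive. Further members that fell were Klf3 (-5.61), the notch regulator Dtx1 (-5.28), Id3 (-4.83), an inhibitor of E proteins, the chromatin organiser Satb1 (-4.38), Foxo1 (-3.31), which sustains Il7r and Klf2, and Il7r itself, the IL-7 receptor chain. Il7r was at 120.2, 109, 109 and 105 TPM in naive and 5.88, 6.81, 13.5 and 3.91 TPM in tumor (change -3.83 ± 0.42, adjusted p = 9.64e-08). The 3 members that did not pass were Tgfbr2 (-1.1, adjusted p = 0.309), Myb (-1.43, adjusted p = 0.0859) and Ets2 (-1.59, adjusted p = 0.069). For each of them every tumor library lay below every naive library.

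Other large decreases fell outside that list. Ccr9, the receptor for the gut chemokine CCL25, was at 221, 217, 209 and 217 TPM in naive and 0.23, 0.2, 0.53 and 0.73 TPM in tumor (change -7.27 ± 0.76, adjusted p = 3.87e-08). Slc6a19, a neutral amino acid transporter, was at 151 to 163 TPM in naive and 0.28 to 0.6 TPM in tumor, and Slc16a5, a member of the monocarboxylate transporter family, at 121 to 134 and 0.11 to 0.39 TPM. Tdrp was at 175 to 203 TPM in naive and 0.75 to 1.06 TPM in tumor. A locus named RP24.353A8.2 in the table was at 133 to 160.4 TPM in naive and 0.11 to 0.99 TPM in tumor. H3f3c and the pseudogene Rps6-ps4 also stood among the 10 largest decreases, but both have near-identical expressed copies, and their values are uncertain.

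**Figure D3:**
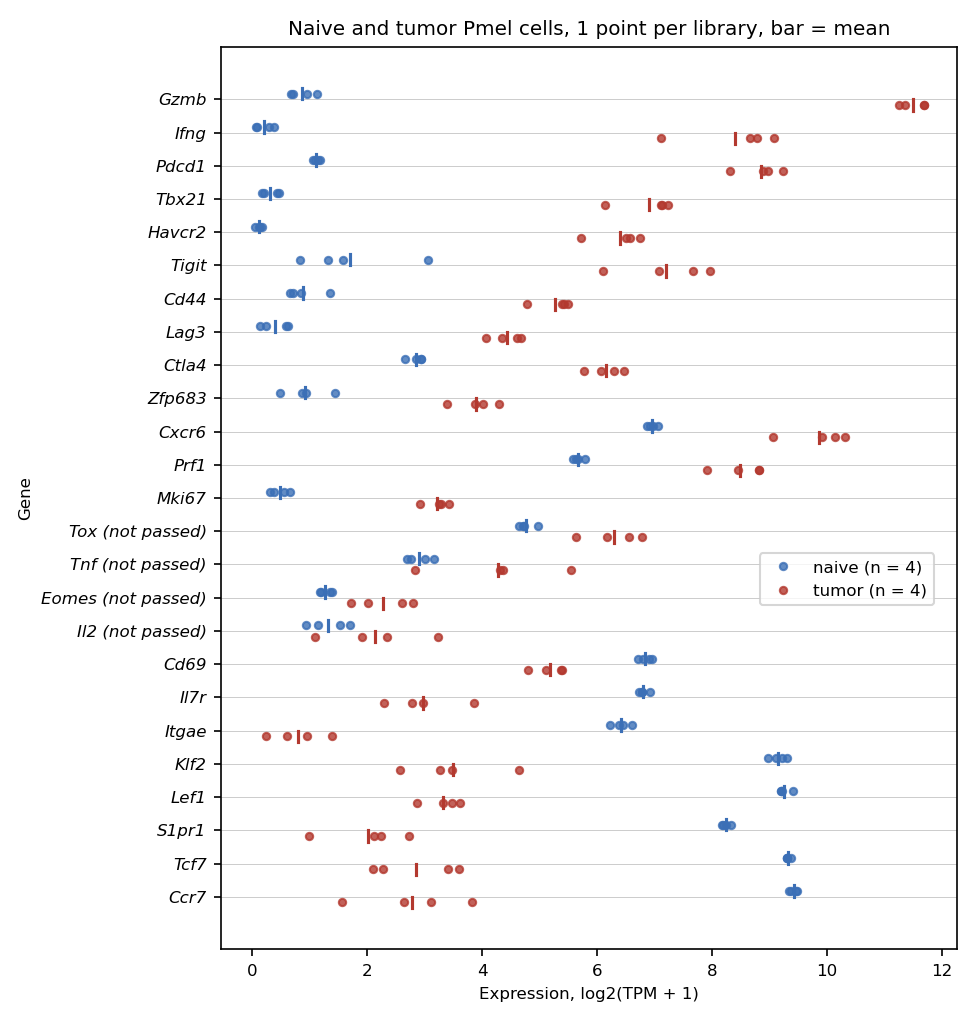
Expression of 25 core genes in the 4 naive (blue) and 4 tumor (red) libraries, as log2(TPM + 1), with 1 point per library and a bar at the mean. From Gzmb down to Mki67, 13 genes rose, and from Cd69 down to Ccr7, 8 fell. Tox, Tnf, Eomes and Il2 did not pass the test.

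Inhibitory receptors and other genes of T cell exhaustion rose. Of 39 tested members, 24 rose and none fell, against 7.32% of all genes rising, with a median change of 2.61. Without a naive or tumor library, 22 to 24 rose. Pdcd1, which encodes PD-1, was at 1.08, 1.27, 1.2 and 1.12 TPM in naive and 601, 499.9, 472 and 315 TPM in tumor (change 7.73 ± 0.76, adjusted p = 1.21e-08). Havcr2, which encodes TIM-3, was at 0.1, 0.03, 0.12 and 0.08 TPM in naive and 94.4, 106, 89.9 and 52 TPM in tumor (change 6.28 ± 0.74, adjusted p = 3.76e-07). Tigit, a receptor for CD155, was at 1.49, 1.98, 7.33 and 0.77 TPM in naive and 249, 201, 133 and 67.9 TPM in tumor (change 5.51 ± 0.77, adjusted p = 5.67e-06). For these receptors replicate 4 was the lowest tumor library, and the groups did not overlap.

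Ctla4, a competitor of CD28 for its ligands, was at 6.63, 6.17, 5.32 and 6.68 TPM in naive and 87.7, 65.7, 77.8 and 53.8 TPM in tumor (change 3.31 ± 0.58, adjusted p = 0.00014). Lag3, a receptor for class II MHC, was at 0.53, 0.1, 0.51 and 0.18 TPM in naive and 24.5, 23.4, 19.4 and 15.8 TPM in tumor (change 4.03 ± 0.33, adjusted p = 4.12e-10). Klrc1, the inhibitory NKG2A chain, went from at most 0.29 TPM in naive to 344 to 655 TPM in tumor. Per length, tumor libraries thus held more Klrc1 and Pdcd1 than Tigit, Havcr2 or Ctla4, and least Lag3. The ectoenzyme Entpd1, also called CD39, was at 0.25 to 0.8 TPM in naive and 39.2 to 81.9 TPM in tumor, and the NAD-consuming Cd38 changed by 3.92. The costimulatory receptors Tnfrsf9 (5.71) and Tnfrsf4 (6.12), the receptor-induced factor Nr4a2 (5.07) and the G protein regulator Rgs16 (6.69) rose as well. Tox, a nuclear factor of exhausted cells, was at 30.5, 25.4, 25 and 24 TPM in naive and 109, 70.9, 93 and 48.6 TPM in tumor. The groups did not overlap, but the change of 1.53 ± 0.61 did not pass in the main fit (adjusted p = 0.0897). Eomes was at 2.28 to 5.91 TPM in tumor and 1.25 to 1.61 TPM in naive (adjusted p = 0.266). Among the other members that did not pass were Nr4a1 (1.6), Batf (1.34), Cd160 (2) and Btla (-1.77).

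Cytotoxic genes rose in the same libraries. Of 27 tested members, 19 rose and none fell, with a median change of 1.98. The count that rose was 13 to 17 in fits without a naive or tumor library, lowest without tumor replicate 1. Beside Gzmb, the granzymes Gzmk (5.84), Gzmc (5.43) and Gzmf (4.56) rose from at most 0.28 TPM in every naive library. Gzmc and Gzmf belong to a cluster of near-identical granzyme genes, so reads may be split between its members. Prf1, the pore-forming perforin, was already present in naive cells, at 49.8, 47.1, 48.3 and 54 TPM, and stood at 447, 450, 347 and 239 TPM in tumor (change 2.83 ± 0.81, adjusted p = 0.0152). The granule gene Nkg7 was likewise at 708 to 878 TPM in naive and 2028 to 4809 TPM in tumor (change 2.11 ± 0.55, adjusted p = 0.00804). Fasl, the ligand that triggers death through Fas, was at 0.1, 0.17, 0.36 and 0.24 TPM in naive and 154, 119, 141 and 61.1 TPM in tumor (change 6.54 ± 0.55, adjusted p = 4.57e-10). Tbx21, which encodes T-bet, a factor for effector genes, was at 0.13, 0.38, 0.15 and 0.34 TPM in naive and 149, 137, 139 and 69.7 TPM in tumor (change 6.59 ± 0.57, adjusted p = 8.59e-10). Gzma differed from Gzmb, Gzmk, Gzmc and Gzmf: it was at 50.3, 4.53, 55.6 and 15 TPM in tumor, overlapped with the 4.36 to 5.35 TPM of naive cells and did not pass (adjusted p = 0.145). Klrd1 (0.42), Gzmm (0.4) and Srgn (0.7) did not pass either.

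Of 26 cytokine and chemokine genes, 18 rose and 3 fell, with a median change of 1.83. Fits without a naive or tumor library had 13 to 18 that rose, fewest without tumor replicate 2. Ifng, the main antiviral and antitumor cytokine of CD8+ T cells, was at 0.06, 0.3, 0.05 and 0.22 TPM in naive and 404, 438, 540.3 and 137 TPM in tumor (change 8.2 ± 0.59, adjusted p = 2.19e-11). Replicate 4 was the lowest and replicate 3 the highest tumor library, and all were far above naive. Ccl5, another inflammatory chemokine, was at 0.82, 3.01, 3.91 and 1.06 TPM in naive and 2783, 2954, 1782 and 674 TPM in tumor (change 9.24 ± 0.65, adjusted p = 1.76e-11). Xcl1 (7.04), which attracts cross-presenting dendritic cells, Ccl1 (7.7), the myeloid growth factors Csf1 (5.07) and Csf2 (3.47) and the matrix protein gene Spp1 (6.08) also rose. Spp1 is abundant in tumor macrophages too, and the myeloid sums of 419 to 730 TPM stand beside it, their part in the change not tested. Tnf was at 7.04, 7.99, 5.47 and 5.76 TPM in naive and 19.7, 18.9, 45.9 and 6.12 TPM in tumor, and Il2 at 0.91, 1.87, 2.26 and 1.2 TPM in naive and 4.05, 2.77, 8.35 and 1.14 TPM in tumor. Both overlapped between the groups and neither passed (adjusted p = 0.111 and adjusted p = 0.471). The 3 that fell were Ltb (-1.35), Tnfsf8 (-1.82) and Il16 (-2.33), and each of the 8 fits without a naive or tumor library called at most 1 gene of the list lower.

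Receptors for position and adhesion moved in both directions. Of 39 tested members, 13 rose and 8 fell, beside 7.32% and 8.02% of all tested genes, with a median change of 0.47. Cxcr6, the receptor for CXCL16, was already at 125, 120.1, 115 and 133 TPM in naive cells and stood at 1271, 1131, 961 and 531 TPM in tumor (change 2.9 ± 0.49, adjusted p = 7.21e-05). The inflammatory receptor Cxcr3 was at 0.87, 0.55, 0.8 and 0.46 TPM in naive and 104, 118, 92.4 and 59.2 TPM in tumor (change 5.78 ± 0.49, adjusted p = 5.33e-10). Ccr2 (4.79) and Ccr8 (4.04) rose too. Of the integrins, Itgb1 rose (3.14), and the mucosal pair of Itgae, which encodes CD103, and Itgb7 fell. Itgae was at 97, 82.5, 86 and 73.7 TPM in naive and 0.52, 0.94, 1.6 and 0.18 TPM in tumor (change -5.62 ± 0.61, adjusted p = 7.63e-08), and Itgb7 at 458, 395, 388 and 417 TPM in naive and 33.1, 58.8, 36.6 and 28.2 TPM in tumor (change -3.42 ± 0.52, adjusted p = 1.94e-05). Tumor cells were thus low for CD103 mRNA in every library, while Zfp683, which encodes the residency factor HOBIT, was at 9.51 to 18.6 TPM against 0.39 to 1.7 in naive (change 2.97 ± 0.56, adjusted p = 0.000293). Cd69, which holds cells in tissue by opposing S1PR1, was at 119, 110.2, 104 and 123 TPM in naive and 40.6, 33.7, 41.1 and 26.9 TPM in tumor and fell by 1.67 ± 0.46 (adjusted p = 0.0127). Cd44, the adhesion receptor that separates antigen-experienced from naive cells, was at 0.63, 0.8, 1.54 and 0.58 TPM in naive and 42, 44, 40.9 and 26.6 TPM in tumor (change 4.38 ± 0.45, adjusted p = 2.93e-08).

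The S100, annexin and galectin genes, small calcium- and sugar-binding proteins that activated T cells express, rose in 13 of 19 tested members, with a median change of 3.18. S100a4 was at 0.26, 1.31, 0.28 and 0 TPM in naive and 1575, 1221, 1002 and 775 TPM in tumor (change 9.64 ± 0.73, adjusted p = 6.71e-11). Lgals3 was at 0.28, 0.4, 0.04 and 0.43 TPM in naive and 606, 480, 456 and 325 TPM in tumor (change 8.48 ± 0.55, adjusted p = 5.47e-12). S100a6 (8.82) and Anxa2 (7.74) rose from a few TPM or less in naive cells, whereas Capg (4.61) and Lgals1 (4.28) rose from 15.2 to 19.9 and 85.9 to 107 TPM. S100a8 (36.8 to 193 TPM) and S100a9 (12.3 to 128 TPM), genes of neutrophils and inflamed keratinocytes, also rose and were highest in replicates 2 and 3. Those libraries also had the highest keratinocyte sums (617 and 355 TPM) and myeloid sums (730.1 and 701 TPM). S100a8 and S100a9 are themselves members of the myeloid list and raise its sums, so the match with the myeloid sums is partly built in. The part of other cells in their change was not tested.

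Cell division genes rose broadly. Of 56 mitosis genes, 47 rose and 1 fell, with a median change of 2.98, and of 51 DNA replication genes 28 rose and none fell, with a median change of 1.53. Without tumor replicate 4 the counts that rose were 46 and 24. Ccnb2, a cyclin of mitotic entry, was at 1.75, 1.29, 1.85 and 0.64 TPM in naive and 144, 104, 105 and 96.7 TPM in tumor (change 5.59 ± 0.73, adjusted p = 2.05e-06). Ube2c, which passes ubiquitin to the anaphase-promoting complex's targets, was at 2.53, 1.73, 3.74 and 1.88 TPM in naive and 228, 136, 145 and 124 TPM in tumor (change 5.52 ± 0.85, adjusted p = 2.13e-05). Replicate 1 was the highest tumor library for both, and all tumor libraries lay above all naive ones.

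Tk1, the thymidine salvage kinase, was at 2.99, 1.61, 2.15 and 2.2 TPM in naive and 99.7, 68.7, 81 and 75 TPM in tumor (change 4.67 ± 0.36, adjusted p = 8.03e-11). Rrm2, a subunit of ribonucleotide reductase, was at 5.59, 5.12, 7.62 and 5.71 TPM in naive and 221, 171, 171 and 139 TPM in tumor (change 4.65 ± 0.64, adjusted p = 4.34e-06). The proliferation marker Mki67 was at 0.46, 0.24, 0.58 and 0.3 TPM in naive and 9.76, 8.46, 8.73 and 6.52 TPM in tumor (change 2.74 ± 0.44, adjusted p = 3.71e-05). Birc5 (5.41), Aurkb (4.69), Cdk1 (4.67), Ccna2 (4.66) and Plk1 (4.26) rose, whereas Smc4, a condensin subunit, was at 768, 721, 706 and 722 TPM in naive and 181, 143, 159 and 123 TPM in tumor and fell by 2.27 ± 0.35 (adjusted p = 2.41e-05). Replication genes with a sizeable naive level were among those that did not pass, such as Pcna (0.65, adjusted p = 0.307), Mcm4 (0.76) and Dnmt1 (0.78). Among 26 genes of cell cycle arrest and quiescence, 6 rose and 6 fell. Cdkn1a, which encodes the inhibitor p21, was at 0.46, 0.36, 0.15 and 0.37 TPM in naive and 83.7, 55.3, 56.2 and 63.2 TPM in tumor (change 5.6 ± 0.46, adjusted p = 2.99e-10). Sesn1 (-3.63) and Trp53inp1 (-2.73) fell, and 3 members were called lower without any 1 library other than tumor replicate 1.

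Promoters of the mitosis and replication genes with the largest changes are shown because members of these lists moved together. They are the 250 bases before the start in RefSeq (GRCm38.p6), 5′ to 3′ on the gene's strand, with matches to 5 motifs on either strand in capitals. The motifs were TTTGAA (the core of the element called CHR), CCAAT (the box bound by NF-Y), TTCCCGC and TTGGCGC (E2F sites) and TGANTCA (an AP-1 site), where ATTGG, the other strand of CCAAT, can share its last letters with TTGGCGC.
Ccnb2: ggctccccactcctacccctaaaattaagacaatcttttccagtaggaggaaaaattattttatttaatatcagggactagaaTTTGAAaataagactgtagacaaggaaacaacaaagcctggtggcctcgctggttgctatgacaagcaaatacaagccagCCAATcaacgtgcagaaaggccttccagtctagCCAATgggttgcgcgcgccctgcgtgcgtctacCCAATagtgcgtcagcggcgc
Ube2c: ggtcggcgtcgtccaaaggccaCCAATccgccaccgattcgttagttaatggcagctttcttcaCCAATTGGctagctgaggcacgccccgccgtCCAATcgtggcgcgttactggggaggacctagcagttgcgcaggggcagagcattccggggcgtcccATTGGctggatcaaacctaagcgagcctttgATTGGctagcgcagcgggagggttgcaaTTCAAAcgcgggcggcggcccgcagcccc
Tk1: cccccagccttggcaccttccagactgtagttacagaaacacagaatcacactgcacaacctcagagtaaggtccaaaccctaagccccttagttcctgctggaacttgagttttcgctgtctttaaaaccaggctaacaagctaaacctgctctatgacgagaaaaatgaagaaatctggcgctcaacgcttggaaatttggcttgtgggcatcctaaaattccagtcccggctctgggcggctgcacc
Rrm2: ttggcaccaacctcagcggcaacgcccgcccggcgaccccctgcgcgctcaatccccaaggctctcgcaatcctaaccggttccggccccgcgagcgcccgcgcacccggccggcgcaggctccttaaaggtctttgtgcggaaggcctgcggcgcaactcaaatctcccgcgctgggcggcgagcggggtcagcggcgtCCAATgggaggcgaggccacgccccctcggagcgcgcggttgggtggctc
The windows are chr9:70421555-70421804 (minus strand), chr2:164769679-164769928 (plus), chr11:117826015-117826264 (minus) and chr12:24708004-24708253 (plus). The Ccnb2 window holds 3 CCAAT matches, which begin 87, 54 and 21 bases before the start, and a TTTGAA match 167 bases before it. The Ube2c window holds 6 CCAAT matches over both strands and a TTTGAA match, read on the other strand, that begins 29 bases before the start. The Rrm2 window holds a CCAAT match 50 bases before the start, and the letters of the 5 motifs do not occur in the Tk1 window.

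Across the mitosis list 47 of 56 tested members had a window, and 72.3% of these held CCAAT and 36.2% TTTGAA, against 34.5% and 16.3% of 27025 genes with a window and 36.8% and 11.6% of the 11307 tested genes with one. Both motifs stood in 31.9% of the mitosis windows, in 5.7% of all windows and in 4.5% of those of tested genes. In the replication list 43 of 51 members had a window, of which 60.5% held CCAAT, 27.9% TTCCCGC and 11.6% TTGGCGC, against 34.5%, 3.8% and 2.1% of all genes and 36.8%, 6.4% and 3.3% of tested genes. CCAAT was also frequent in the windows of unfolded protein and heat shock genes (72.0%) and of class I MHC genes (70.6%), lists of which 8 of 31 and 0 of 21 members rose, and TTTGAA stood in 37.5% of the survival and death windows. For genes with several windows the window listed at the top was used. These matches describe letters and not bound sites, and no test was made of them.

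Glycolysis and hypoxia genes rose in 16 of 38 tested members, and Pdk1, the kinase that keeps pyruvate out of the citric acid cycle, fell (-3.02). Tpi1, a glycolytic enzyme, was at 37.4, 33.6, 29.5 and 34.9 TPM in naive and 757, 576, 567 and 515 TPM in tumor (change 4.11 ± 0.29, adjusted p = 1.71e-11). Slc16a3, the lactate exporter, was at 0.35 to 0.81 TPM in naive and 35.1 to 79.3 TPM in tumor (change 5.2 ± 1.04, adjusted p = 0.000589). Bnip3, a hypoxia-induced mitophagy receptor, was at 6.96 to 8.72 TPM in naive and 70.1 to 104 TPM in tumor (change 3.29 ± 0.41, adjusted p = 8.56e-07). Gapdh (2.79), Aldoa (1.86), Pkm (1.96) and Hk2 (2.36) rose. The glucose transporters Slc2a1 (1.16) and Slc2a3 (1.55) and Hif1a (0.95) did not pass.

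Nuclear genes of oxidative phosphorylation had a median change of -0.004, with 3 of 43 rising and none falling, near the 7.32% of all genes. Those 3 were Cox5a, Cycs and Ndufb8, and none of them passed without naive replicate 2 or 3 or tumor replicate 1. Translation and ribosome genes fell in 18 of 39 tested members and rose in 1, with a median change of -0.87, and the count that fell was 8, 10 and 10 without tumor replicate 4, 3 or 2, and 9 and 11 without naive replicate 1 or 4. Eef1a1, the elongation factor, was at 3740.3, 3186, 2793 and 3307 TPM in naive and 1355, 1004, 1245 and 801 TPM in tumor (change -1.58 ± 0.27, adjusted p = 9.36e-05), and Rps24 (-1.53) and Rpl7 (-1.28) fell with it. Ribosomal protein genes have many near-identical pseudogenes, so their values are uncertain. TPM is a share of a fixed sum, and the mitochondrial share of 5.43% to 14.8% in tumor stands beside these decreases. After rescaling without marker, receptor segment and mitochondrial genes the list's median change was -0.78 and 16 members fell. The member that rose was Eif4ebp1 (1.73), a brake on cap-dependent translation.

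**Figure D4:**
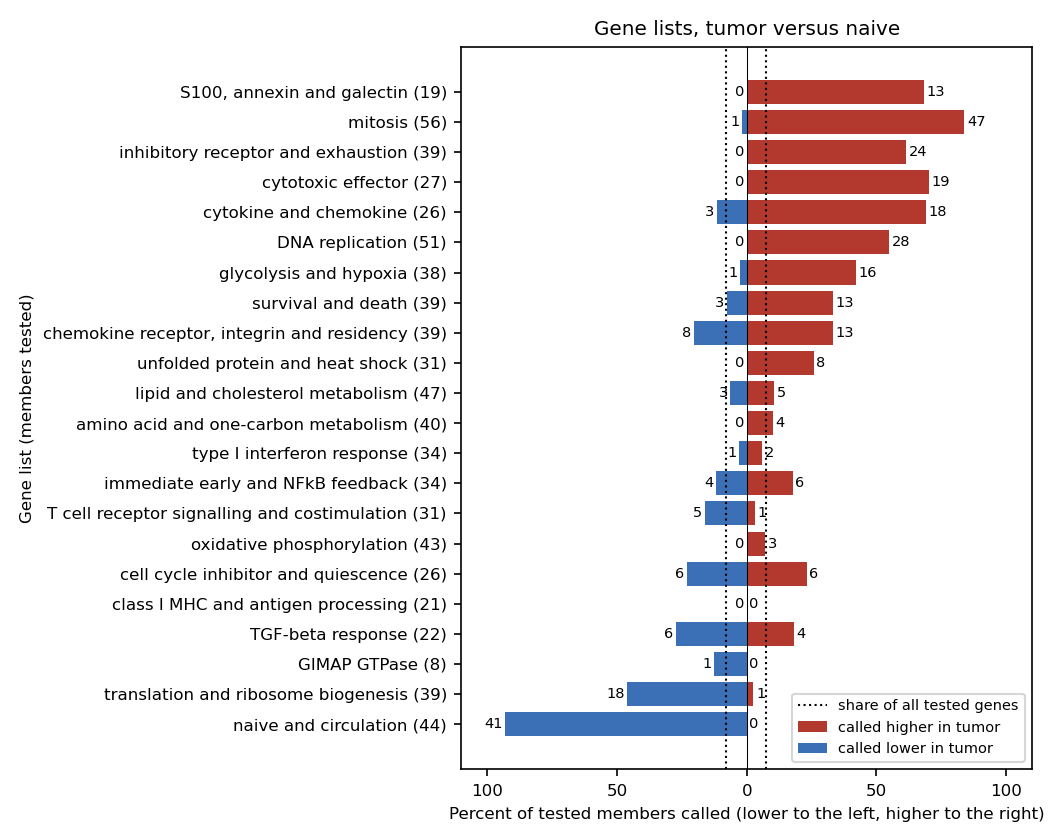
Percent of the tested members of each of 22 gene lists that rose (red, to the right) or fell (blue, to the left) in tumor against naive cells, with the number of genes at the end of each bar and lists ordered by median change. Dotted lines mark the shares of all tested genes, 7.32% and 8.02%. The naive and circulation list is the longest bar to the left, with 41 of 44, and mitosis the longest to the right, with 47 of 56.

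Of 39 tested survival and death genes 13 rose and 3 fell. The IL-2 receptor beta chain Il2rb was at 50.9, 42.9, 45.9 and 39.4 TPM in naive and 593, 473, 497 and 301 TPM in tumor (change 3.32 ± 0.62, adjusted p = 0.000302), while Il7r fell as described. Il12rb2 (4.48), Il18rap (5.48) and the antiapoptotic Bcl2a1b (4.7) and Bcl2a1d (6.47) rose, the last 2 being near-identical copies whose reads may be split. Bcl2 (-0.83), Mcl1 (-1.07) and Bcl2l11 (0.78) did not pass.

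Heat shock and unfolded protein genes rose in 8 of 31 tested members. Hspa1a was at 0.04, 0.27, 0.25 and 0.17 TPM in naive and 106, 36.2, 77.3 and 99.4 TPM in tumor, and its near-identical copy Hspa1b at 1.73 to 2.11 and 57.2 to 158 TPM, with changes of 5.99 ± 1.11 and 5.3 ± 1.13 (adjusted p = 0.000249 and adjusted p = 0.00115). The endoplasmic reticulum chaperones Hspa5 (1.17, adjusted p = 0.123), Hsp90b1 (0.76) and Calr (0.14) did not pass. These stress genes also respond to tissue dissociation, whose conditions for spleen and tumor are not given, so the handling and the site cannot be told apart here. Immediate early genes were mixed, with 6 of 34 higher and 4 lower (1 lower without naive replicate 1 or tumor replicate 4), and Fos (0.81), Jun (-0.57) and Egr1 (-0.22) did not pass.

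T cell receptor signalling and costimulation genes rose in 1 of 31 (Slamf7, 5.33) and fell in 5, among them Slamf6, a marker of progenitor-like exhausted cells, which was at 317, 276, 252 and 318 TPM in naive and 15.6, 17.4, 23.4 and 7.43 TPM in tumor (change -4.2 ± 0.92, adjusted p = 0.00167). Without tumor replicate 4, 3 of them fell. Type I interferon response genes rose in 2 of 34 and fell in 1, lipid genes rose in 5 of 47 and fell in 3, and amino acid and folate metabolism genes rose in 4 of 40. Of all tested genes 7.32% rose and 8.02% fell, and the counts that rose in these lists lie near that share. Without naive replicate 1 the lipid genes that fell were 1, and without any 1 library other than tumor replicate 4 the interferon and amino acid genes that rose were 1 and 2. Fabp5 (4.26), a fatty acid carrier that keratinocytes express too, and Asns (3.79), asparagine synthetase, were the largest increases of the lipid and amino acid lists. No class I MHC and antigen processing gene was called in limma, and H2-K1 (-0.71) and B2m (-0.29) did not pass, while 1 member was higher and 2 lower at an unadjusted p under 0.05, and the fit of the compared groups alone called 2 higher and 3 lower. TGF-beta response genes moved both ways, with 4 of 22 higher and 6 lower (3 without naive replicate 1), of which Itgae and Rgs16 are described above, and GIMAP GTPase genes fell in 1 of 8 (Gimap8, -1.33).

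The day 12 lymph node cells give a further state to set beside naive and tumor. Their mean TPM lay between the naive and tumor means for 688 of the 1444 genes that rose and 1209 of the 1583 that fell. The comparison of tumor with day 12 shares its tumor libraries with the comparison to naive cells, so the values are given side by side. Relative to day 12, 899 genes were higher in tumor (4.55%) and 477 lower (2.42%), with 65.3% of calls higher in the main scaling and 48.2% after quantile normalization. Without any 1 tumor or day 12 library other than tumor replicate 1, 521 to 573 were higher and 248 to 309 lower. They were 526 and 248 without tumor replicate 4. Naive and circulation genes had a median level of 6.73 to 7.02 on the log2 scale in naive libraries, 4.51 to 4.85 at day 12 and 2.61 to 3.18 in tumor. Of the 44 members 15 were lower in tumor than at day 12 and none higher. Tcf7 was at 241, 206, 241 and 173 TPM at day 12, and its change from there to tumor was -4.9 ± 0.61 (adjusted p = 2.57e-06). Klf2 was at 326, 286, 315 and 307 TPM at day 12, and its change was -4.78 ± 0.46 (adjusted p = 2.41e-08). Day 12 cells thus stood nearer to naive than to tumor cells for both factors on the log2 scale, whereas Satb1, at 11.4 to 16.9 TPM, and Pik3ip1, at 4.26 to 6.47 TPM, had changes to tumor of -0.1 (adjusted p = 0.96) and -0.25 (adjusted p = 0.876). Itgae was still at 80.5, 73.9, 78 and 53.7 TPM at day 12 and lower in tumor (-5.37 ± 0.61, adjusted p = 5e-07), as was Slamf6 at 337, 319, 356 and 272 TPM (-4.34 ± 0.92, adjusted p = 0.00329).

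**Figure D5:**
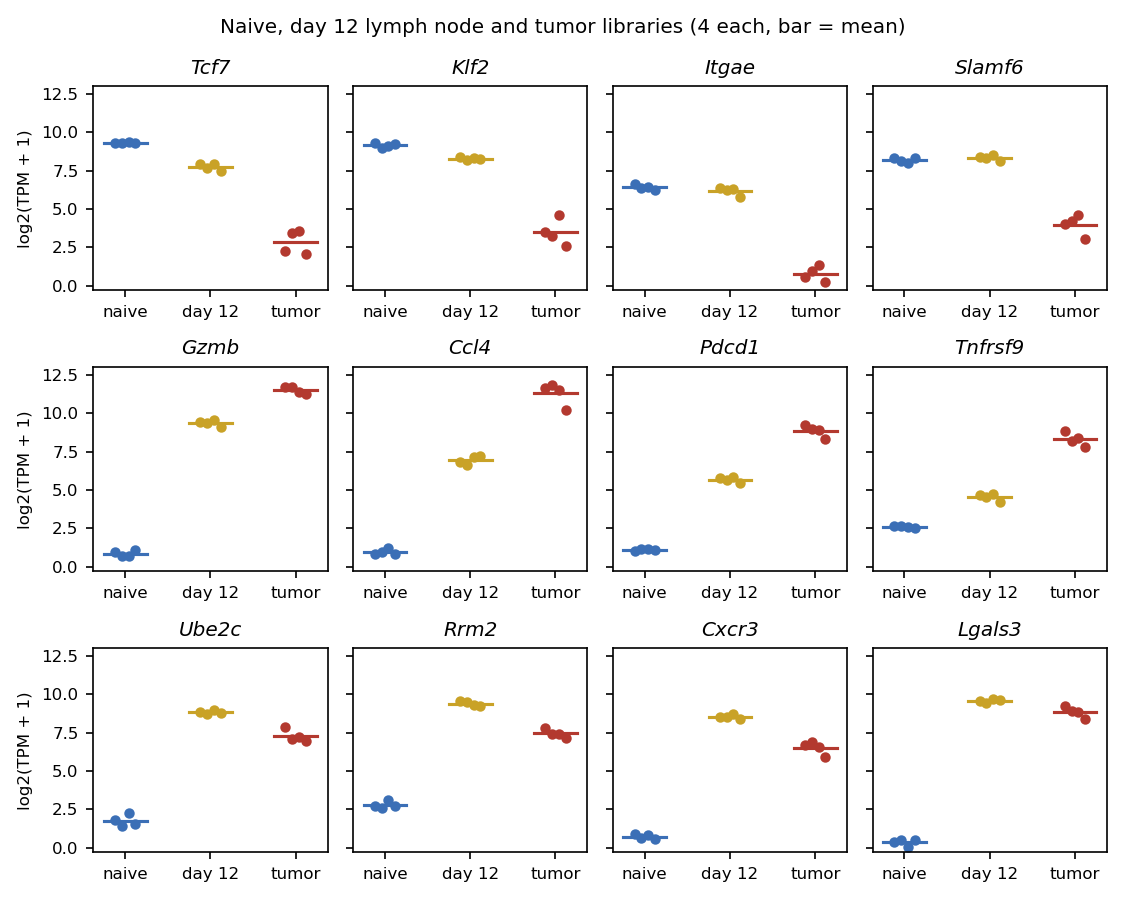
Expression of 12 genes as log2(TPM + 1) in the naive, day 12 lymph node and tumor libraries, 4 points each with a bar at the mean. Tcf7, Klf2, Itgae and Slamf6 are far lower in tumor than at day 12, Gzmb, Ccl4, Pdcd1 and Tnfrsf9 are higher in tumor than at day 12, and Ube2c, Rrm2, Cxcr3 and Lgals3 have day 12 means above the tumor means, of which Cxcr3 alone passed the test.

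Effector and exhaustion genes were higher in tumor than at day 12 in part. Of the 39 exhaustion genes, 12 were higher and 2 lower. Lag3 (1.96, adjusted p = 0.000275) and Klrc1 (2.16, adjusted p = 0.0228) were among the higher ones. Havcr2 (1.675, adjusted p = 0.182), Tigit (1.65, adjusted p = 0.207) and Ctla4 (1.58, adjusted p = 0.0986) did not pass. Pdcd1 was at 52.9, 49.2, 57.3 and 42.4 TPM at day 12 (tumor minus day 12 3.17 ± 0.76, adjusted p = 0.00853), Tnfrsf9 at 24.4, 22.6, 25.9 and 17.3 TPM (3.77 ± 0.87, adjusted p = 0.00636) and Entpd1 at 4.8, 3.35, 3.32 and 1.55 TPM (3.93 ± 0.64, adjusted p = 0.000168). Tox, which did not pass against naive cells, passed here (1.95 ± 0.61, adjusted p = 0.0467). The 2 that were lower were Tox2 (-2.52) and Eomes, at 29.9, 27.6, 27.4 and 26.9 TPM at day 12 (-2.57 ± 0.58, adjusted p = 0.00553). Gzmb was at 691, 640.1, 751 and 552 TPM at day 12 and higher in tumor (2.14 ± 0.55, adjusted p = 0.0152), Ccl4 at 114, 98.3, 139.6 and 146 TPM (4.33 ± 0.53, adjusted p = 1.78e-06) and Ifng at 37.8, 34.8, 37.6 and 30.4 TPM (3.24 ± 0.59, adjusted p = 0.00059). Gzma ran the other way, at 562, 551, 746 and 730 TPM at day 12 (-4.83 ± 0.9, adjusted p = 0.000848). Prf1, at 39, 34.2, 39.6 and 29.9 TPM, lay below its naive values at day 12 and was higher in tumor (3.31 ± 0.81, adjusted p = 0.0104).

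Part of the division genes were lower in tumor than at day 12. Among mitosis genes 12 of 56 were lower and none higher, and among replication genes 8 of 51 were lower and none higher. Mki67 was at 38.8, 33.7, 39.9 and 43.5 TPM at day 12 and lower in tumor (-2.1 ± 0.44, adjusted p = 0.00258), as was Top2a at 202, 198, 196 and 204 TPM (-1.54 ± 0.4, adjusted p = 0.0154). Ube2c, at 462, 424, 492 and 443 TPM, did not pass (-1.56 ± 0.85, adjusted p = 0.289). Library medians of the mitosis list were 1.07 to 1.70 on the log2 scale in naive cells, 6.33 to 6.66 at day 12 and 4.60 to 5.01 in tumor. Interferon response genes had the opposite course, with medians of 5.75 to 6.02 in naive cells, 3.59 to 3.79 at day 12 and 4.85 to 5.88 in tumor. Of these 34 genes 13 were higher in tumor than at day 12, among them Isg15, at 17.3, 14.2, 15.4 and 21.5 TPM at day 12 (2.86 ± 0.5, adjusted p = 0.000359), and Usp18, at 6.93, 4.57, 5.64 and 4.65 TPM (3.48 ± 0.56, adjusted p = 0.000147). Both overlapped between naive and tumor, where Isg15 was at 69.1 to 92.5 and 90.3 to 162 TPM and Usp18 at 77 to 93.3 and 42.5 to 88.6 TPM. Glycolysis and hypoxia genes were higher in tumor than at day 12 in 7 of 38, led by Bnip3 (3.87 ± 0.41, adjusted p = 1.6e-07), which was at 4.07 to 5.23 TPM at day 12.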

How the data were processed

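The authors deposited natural log (ln) values of TPM + 1, settled from the values: converted back, all are multiples of 0.01 TPM and each library sums to between 999999.06 and 1000000.8. The processing notes of the submitters name Bowtie and the mm10 build. No source used here gives the aligner's version, the annotation or how reads were counted, and depth is unknown. Of 46517 gene names, 42052 (90.4%) matched an annotation symbol, after 3827 had their hyphens restored.

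TPM + 1 was converted to log2. Genes with at least 1 TPM in 4 or more of the 32 libraries (19738 of 42409 above 0) entered 1 linear model of all 8 groups in limma 3.58.1 (R 4.3.3), with a variance trend and 24 residual degrees of freedom, tested on simulated data. P-values were adjusted by Benjamini-Hochberg over all tested genes and called under 0.05. Python 3.11.15, pandas 2.3.3 and Matplotlib 3.10.9 served for summaries and figures. Promoters come from RefSeq (GRCm38.p6) and coordinates from GENCODE (GRCm38, the same build as mm10).

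Named genes are 26 core genes, the 10 called genes that rose most and the 10 that fell most (mean log2 of 3 or more, groups not overlapping, without predicted genes, receptor segments or markers of other cells), and, per list, up to 5 called members with the largest changes. The text prints a part of them, and a few items are not reported here. Other list members that the text names, among them most that did not pass, were chosen after their values were seen. The comparison, members and 22 gene lists were chosen with earlier results of these data known. Alternatives were other filters and pseudocounts, fits of the compared groups alone, array weights, weights per group, quantile normalization, rescaling without 803 marker, segment and mitochondrial genes, a block for the replicate number and fits without each library in turn.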

Additional observations from a re-analysis of the deposited data

Results flagged for a closer look

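In 110 groups of 4 libraries (core genes, largest changes and library measures), 7 had a library whose gap to the nearest of the others took up more of the group's range than Dixon's 95% critical value allows, and chance gives about 5% of groups. Tcf7 was highest in naive replicate 3, at 665 TPM against 633 in the next library, and Lef1 in naive replicate 1, at 674 TPM against 595, both far above the 3.28 to 11.2 TPM of these 2 genes in tumor libraries. Cd44, at 26.6 TPM against 40.9 in the next library, and Tbx21, at 69.7 TPM against 137, were lowest in tumor replicate 4, which also had the lowest T cell identity sum, 14115 TPM. H3f3c was at 3.01 TPM in tumor replicate 4 and at 0 in the other tumor libraries, and Rps6-ps4 at 84.1 TPM in tumor replicate 3 and at 0 in the others. Both are sequences with near-identical copies. The melanocyte and melanoma sum was 1012 TPM in tumor replicate 2 against 474 in the next library, and that library also had the highest mitochondrial share, 14.8%, and the highest keratinocyte and erythroid sums, 617 and 12468 TPM.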

How the results depend on the processing

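Of 113 named genes that were called, 103 stayed called without any 1 naive or tumor library, and none changed direction under any alternative run. Those lost without a library include Wdr12, Cycs, Shmt1, Atf3, Psat1 and Isg20, and Cd247 without tumor replicate 4. Most named genes were picked for large changes in the main fit, which favours their staying called. Of all 3027 called genes, each fit without a naive or tumor library kept 2128 to 2522 in the same direction. Genes higher in tumor than in naive ranged from 1112 to 1367 over the fits that left out a library, and lower from 1020 to 1297, lowest without naive replicate 1 or tumor replicate 4. Against day 12 the ranges were 521 to 1134 and 248 to 489.

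A pseudocount of 0.1 TPM gave 999 genes lower than in naive, a filter of 5 TPM gave 570 genes higher than at day 12, and quantile normalization gave 766 lower than at day 12. With the spread taken from less variable libraries more genes passed. The compared groups alone gave 3745 higher and 5574 lower against naive, and 3924 and 4245 against day 12. Array weights gave 5124 and 6217, and 5553 and 5182. Weights per group gave 4179 and 5500, and 4685 and 4252. Of the named genes that the main fit did not call against naive, the compared groups alone called 6, weights per group 6 and array weights all 7. Tox, Tnf, Il2 and Eomes are among these 7. In the fit of the compared groups, replication genes that rose were 46 of 51, glycolysis genes 29 of 38, survival genes 20 of 39 (14 lower) and translation genes that fell 28 of 39, so the list counts in the report depend on the pooled spread. The share of calls that were higher against naive was 47.7%, and 57.2% with the smaller pseudocount. The class I median of -0.21 was 0.02 after quantile normalization.

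Deviations from the group mean were correlated between naive and tumor libraries. Same-numbered libraries had correlations of 0.304, -0.0933, 0.00924 and -0.253, and not every library correlated best with its own number. Tumor replicate 1 did so. With 4 libraries per group, whose deviations sum to 0, these values cannot decide whether the replicate numbers pair the libraries. A replicate block gave 1475 higher and 1596 lower against naive, and 914 and 536 against day 12. Depth is unknown, so values near 0 have no counting interval.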

Other observations

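The families described here were picked by symbol after the values were seen, and a few of their genes are also members of the lists above. Of all tested genes 7.32% rose and 8.02% fell, and the family counts are to be read beside these shares. Of 23 tested killer cell lectin-like receptor genes 6 rose and none fell. Klrk1, the activating receptor NKG2D, was at 1.31, 2.23, 4.19 and 1.43 TPM in naive and 609.9, 604, 570.1 and 328 TPM in tumor, and Klra3 and Klre1, genes better known from natural killer cells, stood at 11.7 to 62.9 and 48.2 to 73.6 TPM in tumor and at most 0.33 and 0.87 TPM in naive. Klre1 made up most of the natural killer marker sum in tumor, which was 61.6 to 86.8 TPM against 2.51 to 8.07 TPM in naive. The part of natural killer cells was not tested. All 3 of the metallothioneins Mt1, Mt2 and Mt3, which bind zinc, rose, of 4 tested. Mt2 is listed at 0 in every naive library and was at 187, 143, 99.8 and 213 TPM in tumor, and Mt1 was at 603, 469.6, 332 and 628 TPM. Replicate 4 was the highest tumor library for both. Of 6 tested interferon-induced transmembrane genes 3 rose, among them Ifitm3, at 2.38, 2.92, 3.09 and 3.22 TPM in naive and 212, 251, 253 and 201 TPM in tumor. Ifitm1 was at 240.5, 254, 321 and 286 TPM at day 12 and 117, 97.2, 123 and 113 TPM in tumor.

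Of 35 tested interleukin receptor genes 10 rose and 5 fell, beside 7.32% and 8.02% of all tested genes. Il10ra was at 3.9 to 5.13 TPM in naive and 48.1 to 116 TPM in tumor, and the decoy receptor Il1r2 at 0 to 0.74 and 28.5 to 44 TPM. Both chains of the IL-6 receptor fell: Il6ra was at 29.4, 18.1, 24.6 and 19.1 TPM in naive and 0.13, 0.21, 0.5 and 0.89 TPM in tumor, and Il6st at 40.8, 42.3, 46.2 and 27.7 and 4.29, 6.73, 6.38 and 3.43 TPM. Among 14 tested Kruppel-like factors none rose and 4 fell, beside 8.02% of all tested genes that fell, and the family's median change was -0.05. The 4 were Klf2, Klf3, Klf7 (-2.28) and Klf13 (-2.21). Serpina3g, a protease inhibitor of activated T cells, was at 0.14, 0.07, 0.44 and 0.53 TPM in naive and 388, 303, 335 and 206 TPM in tumor. Dntt, the polymerase that adds bases at receptor junctions in thymocytes, was at 30.3, 30.5, 27.1 and 29.5 TPM in naive cells and at most 0.24 TPM in tumor. Neurogranin (Nrgn), best known from neurons, was at 22.6, 20.1, 25.4 and 27.7 TPM at day 12 and 405, 266, 203 and 191 TPM in tumor, against at most 0.48 TPM in naive.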
